A study of Mus musculus with 18 samples.

Results

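The genes described here are the cytosolic ribosomal protein genes, the messages for the protein subunits of the ribosome that works in the cytoplasm. They were chosen by symbol alone: names of the form Rpl or Rps followed by a number (with an optional letter and digit), and the stalk genes Rplp0, Rplp1 and Rplp2. Out of 29717 symbols, 83 matched the rule and 82 were kept because they had at least 10 counts summed over the 18 libraries. Of these, 51 name large subunit proteins and 31 small subunit proteins, on 19 chromosomes. The symbol that was left out, Rpl10l, had 3 counts. The rule takes in Rpl6l, which the GENCODE annotation lists as a processed pseudogene, and leaves out ribosomal proteins with other kinds of symbol, such as Rpsa and Fau.

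RNA was measured in lineage-negative bone marrow progenitors of BALB/c mice, sorted into HSC (haematopoietic stem cells) and the multipotent progenitor populations MPP1 and MPP4. Controls were wild-type. Mutants carried a specific mutation of Dnmt1, the maintenance DNA methylase, designed after fish mutants with lymphoid defects, and the series text reports less methylation in their lineage-negative marrow. The study compared the transcriptomes of these populations. The allele, its zygosity, the age of the mice and the number of animals behind a library are not stated in the labels. HSC had 3 control and 3 mutant libraries, MPP1 had 2 and 2, and MPP4 had 4 and 4. Libraries were made by CEL-Seq2, which tags each captured message once near its poly(A) tail, so levels scaled to library total (CPM) can be compared between genes without a correction for length. Column names carry 8 ID numbers, 4 per genotype, that recur across populations. Whether each is an animal is not stated, and the spread that the p-values rest on could be technical in part.

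Most ribosomal proteins are made in equal numbers for assembly into ribosomes, and ribosomal protein messages are among the most abundant in growing cells. Most of these messages begin with a run of pyrimidines, the terminal oligopyrimidine (TOP) tract, through which mTOR signalling sets their translation as a group. Blood stem cells are known to keep protein synthesis low, and loss of 1 copy of several of these genes causes Diamond-Blackfan anaemia, a failure of red cell production. A few members have a second, related gene with tissue-restricted use, often in testis or muscle.

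The deposited tables held from 354642 to 1943562 counts per library. In 6 libraries the summed B cell or erythroid markers exceeded 10000 CPM: HSC control 1 (B cell, 35700 CPM), HSC mutant 1 (erythroid, 13511 CPM), MPP1 control 2 (erythroid, 32475 CPM), MPP4 control 4 (erythroid, 29853 CPM), MPP4 mutant 2 (erythroid, 189480 CPM) and MPP4 mutant 3 (B cell, 11856 CPM). Counts of members called, medians and shares are also given without them, but not the levels or the composition axis. Called genes of the pathway lists named below are also followed on that set, though not in every comparison. Both marker lists hold 11 genes, all found, and their summed levels started at 25.4 and 350.2 CPM. The 7 stem cell markers summed to 589 to 2171 CPM in HSC, 1314 to 1949 CPM in MPP1 and 307 to 1266 CPM in MPP4, and the 6 lymphoid-primed progenitor markers to 78.7 to 289, 125 to 206 and 1334 to 3276 CPM. A, B and C are the labels' sequencing batches. Dnmt1 was at 100.2 to 377 CPM in controls and 109.0 to 350 CPM in mutants, and since the allele is not named, its level checks no label.

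The start regions of 5 members are shown as examples of a pyrimidine run near the start. Such a run at the first base is the TOP tract, the feature by which this family is known. At the RefSeq start used, Rpl13a begins with G and A ahead of its run, while the others begin with C. For each of the 5 the first RefSeq start with CTTTCC near it was taken, so they do not show how common it is. The tract was not used to choose the members as a whole. Each sequence runs from 20 bases before to 25 bases after the transcript start in RefSeq on build GRCm38.p6, and capitals mark CTTTCC, the letters searched for.
Rpl13a, chr7:45128721-45128765, minus strand: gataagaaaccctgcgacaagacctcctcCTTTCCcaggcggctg
Rpl15, chr14:18270962-18271006, minus strand: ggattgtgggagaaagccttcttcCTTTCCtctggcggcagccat
Rpl28, chr7:4792945-4792989, plus strand: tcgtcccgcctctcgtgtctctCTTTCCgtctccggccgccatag
Rps10, chr17:27635220-27635264, minus strand: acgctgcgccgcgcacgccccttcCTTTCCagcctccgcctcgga
Rps27, chr3:90213624-90213668, minus strand: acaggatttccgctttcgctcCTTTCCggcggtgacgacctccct
The table of promoters held 61 of the 81 members looked up, with Rpl6l left aside. CTTTCC on the transcribed strand, within 50 bases on either side of the start, was present in 19 of the 61 (31.1%), against 5.43% of 27025 genes in the table. The letters CCGGAAG, searched on both strands from 250 bases before to 50 after the start, were in 25 of the 61 members and 9.93% of all genes. AAGATGG, searched the same way, was in 16.4% and 7.28%. The 3 motifs can overlap and were searched separately. Members also had a denser CpG content, the dinucleotide that Dnmt1 methylates: the median was 21 per 300 bases against 7 over all genes, with a range of 2 (Rpl3l) to 35 among members. A match describes these letters in this window and shows no binding.

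Mean levels of the 82 members ran from 0.89 to 4840 CPM. Of the 82 kept members 78 had a count in every library. Rps24, a small subunit protein and a Diamond-Blackfan anaemia gene, had the highest mean level over the libraries at 4840 CPM. It was followed by Rpl4 (4203 CPM), the stalk gene Rplp1 (3654 CPM), Rps20 (3616 CPM) and Rps12 (3610 CPM). The 5 lowest were Rpl3l (0.89 CPM), Rpl24 (1.60 CPM), the pseudogene Rpl6l (2.2 CPM), Rpl39l (4.43 CPM) and Rpl7l1 (111.6 CPM). Rpl24 codes for a standard large subunit protein, yet it had 28 counts in 12 libraries. The last 200 bases of its transcript are matched at 95% identity or more, over at least 75% of their length, by 4 other genes, and how the authors assigned such reads is not given in the sources used here. By the same search 40 of the 78 members found in every library have at least 1 such copy, and levels of those members are uncertain to that extent.

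The acidic stalk proteins recruit translation factors to the large subunit. Rplp1 was at 4317 ± 622 CPM in HSC controls and 4176 ± 860 CPM in HSC mutants (SD, n = 3 each), and at 3387 ± 980 CPM and 3426 ± 1009 CPM in MPP4 (n = 4 each). Rplp2, its partner in the stalk dimer, ran from 1294 CPM (MPP4 mutant 2) to 4546 CPM (MPP4 mutant 1). Rplp0, the stalk base, ran from 529 CPM (MPP4 control 4) to 3223 CPM (MPP4 mutant 1). For all 3 stalk genes the control and mutant ranges overlapped in each population.

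Rpl5 and Rpl11 bind 5S ribosomal RNA and, when unassembled, restrain Mdm2. Rpl5 was at 2447 ± 483 CPM in HSC controls, 2976 ± 419 CPM in HSC mutants, 2761 ± 1405 CPM in MPP4 controls and 2637 ± 730 CPM in MPP4 mutants. Rpl11 was at 1614 ± 194 and 1908 ± 366 CPM in HSC controls and mutants, and at 1389 ± 465 and 1518 ± 618 CPM in the MPP4 groups. Rpl11 was also among the steadiest members relative to the rest, at 0.911% to 1.31% of all ribosomal protein counts in every library. Levels in the 2 genotypes overlapped for both genes in HSC and MPP4. In MPP1 both Rpl11 mutants, at 1268 and 1341 CPM, lay above both controls, at 1236 and 1181 CPM. The gene did not pass the test there, and the share of all genes that separate this way was not counted.

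The Diamond-Blackfan anaemia genes Rps19, Rps24, Rps26, Rps7, Rps10 and Rpl35a code for subunits whose partial loss halts red cell maturation. Rpl35a had 277, 327 and 195 CPM in HSC controls and 357, 303 and 310 CPM in HSC mutants. In MPP4 its controls had 252, 144.1, 246 and 82.9 CPM and its mutants 514, 128.2, 306 and 313 CPM. The MPP4 ranges overlapped through mutant 2, the library with the most erythroid message. The fitted difference in MPP4, mutant minus control, was 0.79 on the log2 scale (SE 0.23), with adjusted p = 0.281 in edgeR's quasi-likelihood test and 0.130 to 1 over 20 alternatives. Rps19, Rps24, Rps26, Rps7 and Rps10 did not pass the test in any of the 3 populations. Over all libraries Rps19 ran from 743 to 3586 CPM, Rps26 from 1286 to 4334 CPM, Rps7 from 802 to 2680 CPM and Rps10 from 532 to 2760 CPM. The lowest value of each of these 4 came from MPP4 control 4, a library with erythroid message. Rps14, the small subunit gene lost in the human 5q deletion, ran from 998 to 3056 CPM and did not pass either.

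Among members with a related second gene, Rpl39l was detected more often in mutants. Rpl39l, on chromosome 16 (GRCm38, 10170226 to 10174911, plus strand), is a paralog of X-linked Rpl39 best known from male germ cells, and Rpl39 codes for a short protein at the exit tunnel. The 300 bases around the start hold 17 CpG in Rpl39l and 17 in Rpl39, beside a median of 21 among members. The 200 bases before the Rpl39l start are shown because it was the 1 member with every mutant ID number above every control (RefSeq, GRCm38.p6, capitals mark the 11 CpG sites).
Rpl39l, chr16:10170028-10170227, plus strand: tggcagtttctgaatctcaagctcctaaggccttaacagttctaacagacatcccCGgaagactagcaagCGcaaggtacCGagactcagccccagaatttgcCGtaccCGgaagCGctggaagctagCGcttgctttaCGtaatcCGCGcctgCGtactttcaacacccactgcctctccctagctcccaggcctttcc
No methylation was measured in these files, and a link between these sites and the level of Rpl39l was not tested.

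HSC controls had 2, 0 and 0 counts of Rpl39l and HSC mutants 3, 25 and 10. MPP1 controls had 5 and 0 counts and MPP1 mutants 3 and 4. All 4 MPP4 controls had 0 counts, and MPP4 mutants had 1, 1, 3 and 3. Rpl39l was thus detected in 9 of 9 mutant and 2 of 9 control libraries, with 53 of its 60 counts in mutants. In CPM the HSC mutants were at 2.48, 23.4 and 17.3 and the HSC controls at 3.34, 0 and 0, so the groups overlapped through batch A. A count of 0 allows up to 3 counts, which was 1.54 to 8.46 CPM in the control libraries at 0.

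**Figure D1:**
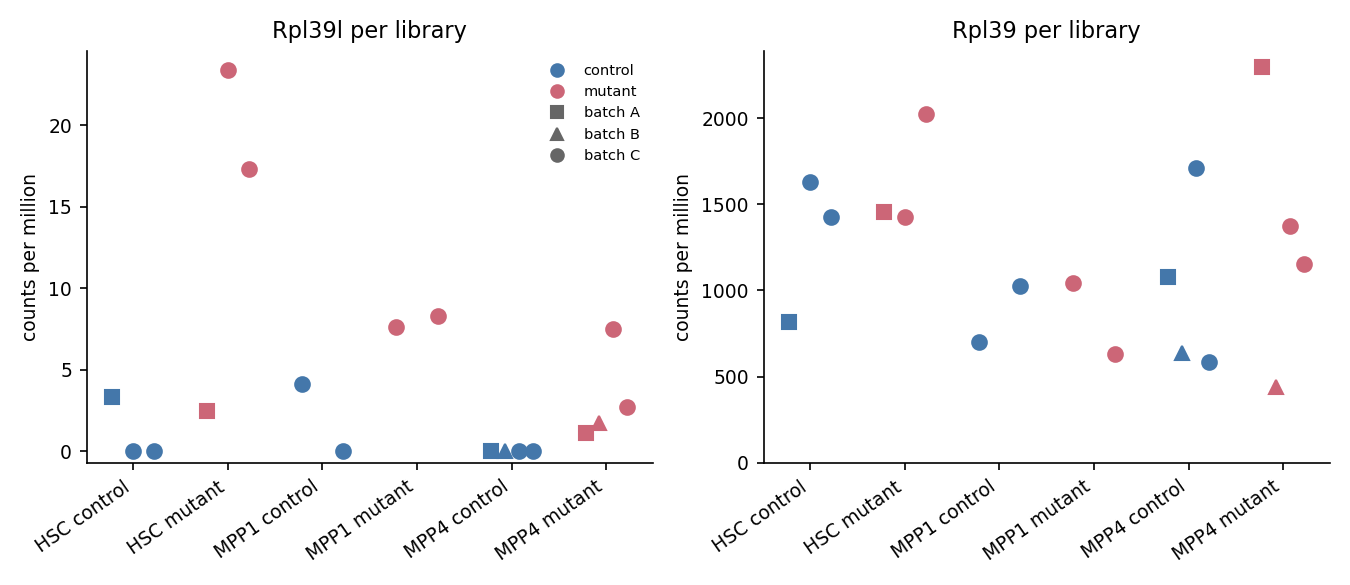
Level in CPM of Rpl39l (left) and of its X-linked relative Rpl39 (right) in each library, by group, with colour for genotype and symbol for sequencing batch. Rpl39l reaches 23.4 CPM in HSC mutant 2 and is at 0 in all 4 MPP4 controls, while Rpl39 of the 2 genotypes overlaps in each population.

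Summed over all libraries Rpl39l was at 7.92 CPM in mutants and 0.808 CPM in controls, a ratio of 9.80 with an exact 95% interval of 4.44 to 25.5 that covers counting error only. In HSC of batch C there were 35 counts in mutants against 0 in controls, and in MPP4 8 against 0. Against a floor of 3 counts over the summed controls, the summed mutants were 9.64-fold and 4.47-fold higher. These folds leave out counting error in the mutants, so they are not lower bounds. With the libraries of each ID number summed, mutants were at 1.90, 12.1, 11.7 and 1.73 CPM and controls at 0.967, 1.48, 0 and 0 CPM. The 4 mutant ID numbers therefore lay above the 4 control ID numbers, but the lowest of them rests on 1 count and batch A on 4 counts against 2. Of all 15810 genes with 10 or more counts 0.614% had every mutant ID number above every control, and Rpl39l was the 1 member among them. Rpl39l had 7 counts in control libraries, so it reached the minimum of 10, here and as a member, only through the mutants. That dependence limits the ratio, the order of ID numbers and the permutation test that follows as support. The exact two-sided permutation test gave p = 0.0286, the smallest that 4 against 4 can give. Adjusted over all 15810 genes it was 1.

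The expression filter left Rpl39l out of the tests per population. Without the filter it passed in HSC (log2 difference 3.50, SE 0.92, adjusted p = 0.0327 by edgeR), where 0.532% of all genes passed. It also passed in HSC of batch C alone (adjusted p = 0.0136, 0.194% of all genes). Over the 8 settings that tested it in HSC the adjusted p ran from 0.0136 to 0.561, and 5 were under 0.05. Of those 5, 4 compare the same 2 batch C mutants with the same 2 batch C controls. Leaving out either batch A library, with batch as a term, or the libraries of high marker message leaves that comparison. In all 4 the filter admitted Rpl39l only through those 2 mutants, at 25 and 10 counts, with 0 in both controls. Its entry into these tests thus depended on the group in which it is high, which limits them as support. With libraries summed per ID number and no filter it passed as well (log2 difference 3.04, SE 0.82, adjusted p = 0.0449, 0.447% of all genes), and in batch C alone the adjusted p of that sum was 0.112. It did not pass in MPP1 or MPP4, where the lowest adjusted p values were 0.919 and 0.361. In the authors' deposited table for HSC Rpl39l had a log2 fold change of 0.89 with an adjusted p of 1.

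Rpl39 was far more abundant than its relative. Its levels were 817, 1631 and 1427 CPM in HSC controls and 1453, 1423 and 2022 CPM in HSC mutants. MPP4 controls had 1076, 635, 1711 and 586 CPM and MPP4 mutants 2297, 440, 1374 and 1151 CPM. The highest share of Rpl39l in the counts of the pair was 1.62%. No copy of the last 200 bases of either transcript was found at the search threshold, in the other gene or elsewhere.

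The other pairs are given in turn. Rpl22l1, the relative of Rpl22 used in early blood development, made up 27.5% to 38.0% of the pair's counts over the 18 libraries, and both extremes were MPP4 libraries of batch B. Rpl7l1 made up 3.23% to 8.32% of its pair. Rpl3l, known from striated muscle, had 18 counts in 6 libraries, all of them MPP4, 3 control and 3 mutant. Rpl10l, known from testis, had 3 counts, all in mutant libraries, too few for a comparison.

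Rps27l, a p53-responsive relative of Rps27, made up 6.43% to 26.4% of its pair. HSC controls had 132, 162 and 102 CPM of Rps27l and HSC mutants 355, 211 and 171 CPM, so every HSC mutant lay above every HSC control. The share of all genes that separate this way in HSC was not counted, so the separation alone is not read as a result. The fitted log2 difference was 0.86 (SE 0.26) with adjusted p = 0.231 by edgeR, and 0.0417 to 1 over 18 alternatives. Within batch A the difference was 1.53, and within batch C it was 0.55. In MPP1 the order was the other way, with 133 and 135 CPM in controls and 88.9 and 85.1 CPM in mutants (adjusted p = 0.999). In MPP4 controls had 187, 250, 153 and 56.2 CPM and mutants 327, 86.6, 176 and 175 CPM.

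As a whole, ribosomal protein genes took 6.72% to 22.6% of the counts of a library. HSC controls had 14.4%, 14.0% and 13.2% and HSC mutants 20.4%, 14.4% and 14.9%. MPP1 controls had 10.5% and 13.0% and MPP1 mutants 12% and 11.3%. MPP4 controls had 15.2%, 12.1%, 13.5% and 6.72% and MPP4 mutants 22.6%, 7.78%, 11.7% and 13.7%. The 2 highest libraries, HSC mutant 1 and MPP4 mutant 1, carry the same ID number, of batch A. HSC mutant 1 had 13511 CPM of erythroid markers, and its batch A control had 35700 CPM of B cell markers. The 2 lowest, MPP4 control 4 and MPP4 mutant 2, are both among the libraries with erythroid message over 10000 CPM. The part of that message in the result was not tested.

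**Figure D2:**
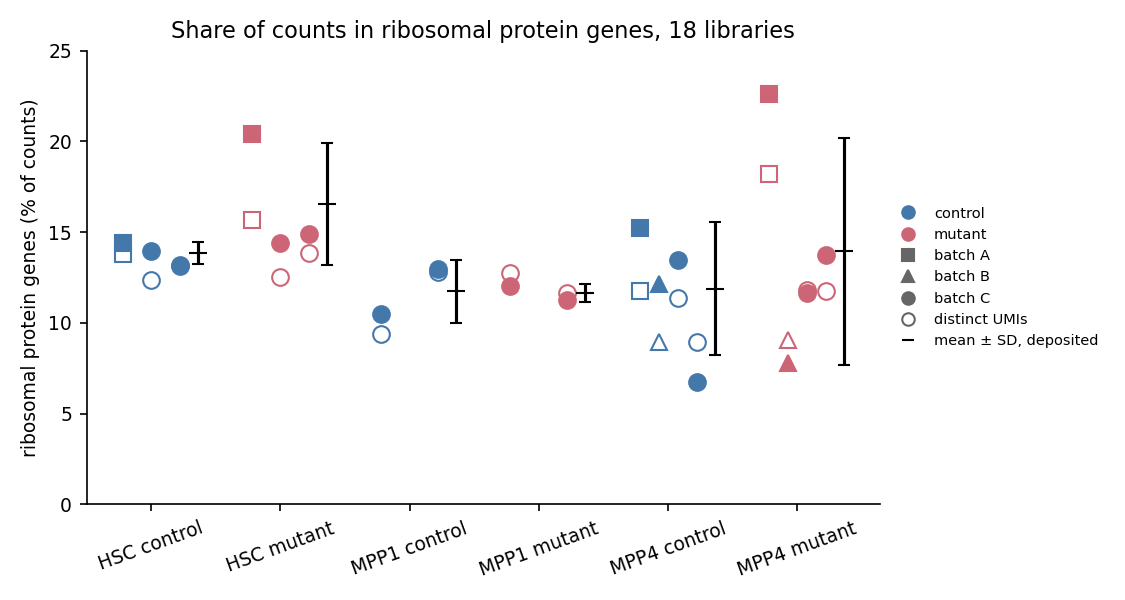
Percent of all counts in ribosomal protein genes for each library, by group, with filled symbols for deposited counts, open symbols for the distinct UMIs behind them, and bars for mean ± SD of the deposited values. The 2 batch A mutants, at 20.4% and 22.6%, stand above all other libraries on the deposited scale.

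The mean share was 13.9 ± 0.605% in HSC controls and 16.6 ± 3.35% in HSC mutants (SD, n = 3 each). For MPP1 the means of controls and mutants were 11.7 ± 1.74% and 11.6 ± 0.521% (n = 2 each), and for MPP4 they were 11.9 ± 3.67% and 13.9 ± 6.27% (n = 4 each). The deposited counts hold a correction for tags that collide, which adds most to abundant genes in deep libraries. Turned back to distinct UMIs, HSC mutant 1 was at 15.6% and MPP4 mutant 1 at 18.2%. On that scale the means of controls and mutants were 13.1 ± 0.710% and 14.0 ± 1.58% in HSC, 11.1 ± 2.39% and 12.2 ± 0.766% in MPP1, where the order turned, and 10.3 ± 1.53% and 12.7 ± 3.89% in MPP4. Without the 6 libraries of high marker message the deposited means were 13.6% and 14.6% in HSC, 10.5% (1 library) and 11.6% in MPP1, and 13.6% and 18.2% in MPP4. Large subunit counts exceeded small subunit counts in all 18 libraries, by a ratio of 1.09 to 1.33.

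The genotype comparisons asked whether single members differed between mutant and control. In HSC 0 of 78 members tested passed an adjusted p under 0.05 by edgeR, where 0.241% of 9147 genes did. Before adjustment 13 members had p under 0.05. The share of all genes under 0.05 before adjustment is not given here, so no such count is read as an excess. The median log2 difference of members was 0.33, and 77 of 78 were higher in mutants, beside a median of 0.01 over all genes. In MPP4 0 of 78 passed (0.0852% of 9392 genes, 4 members before adjustment), with a median of 0.29 and 78 of 78 higher, beside a median of 0.00 over all genes. In MPP1 0 of 78 passed (0.225% of 8004 genes, 1 member before adjustment), with a median of 0.13 and 65 of 78 higher, beside a median of -0.004 over all genes. DESeq2 also called 0 members in each population, and the authors' deposited tables hold 0 of 82 members with an adjusted p under 0.05. The members' medians in the authors' deposited tables were 0.39 in HSC, -0.01 in MPP1 and 0.31 in MPP4.

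The shared tilt was larger in batch A, with 1 library against 1, than in the other batches, and that difference was not tested. Within batch A the median was 0.68 in HSC and 0.88 in MPP4, with 78 of 78 members higher in each. Within batch C it was 0.15 in HSC (64 of 78 higher), 0.15 in MPP1 (66 of 78) and 0.15 in MPP4 (63 of 78). Comparisons of the same batch use the same ID numbers in each population, so their medians are not independent of each other. Within batch B, 1 library against 1 in MPP4, it was -0.04 (37 of 78). Without the mutant library of batch A the HSC median was 0.15, and without the control library of batch A the MPP4 median was 0.08. On distinct UMIs the HSC median was 0.17, with 68 of 78 higher. The MPP1 median rested on single libraries: it was -0.10 without control 1 (26 of 78 higher) and 0.41 without control 2 (77 of 78), and -0.0055 with library totals in place of TMM scaling.

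**Figure D3:**
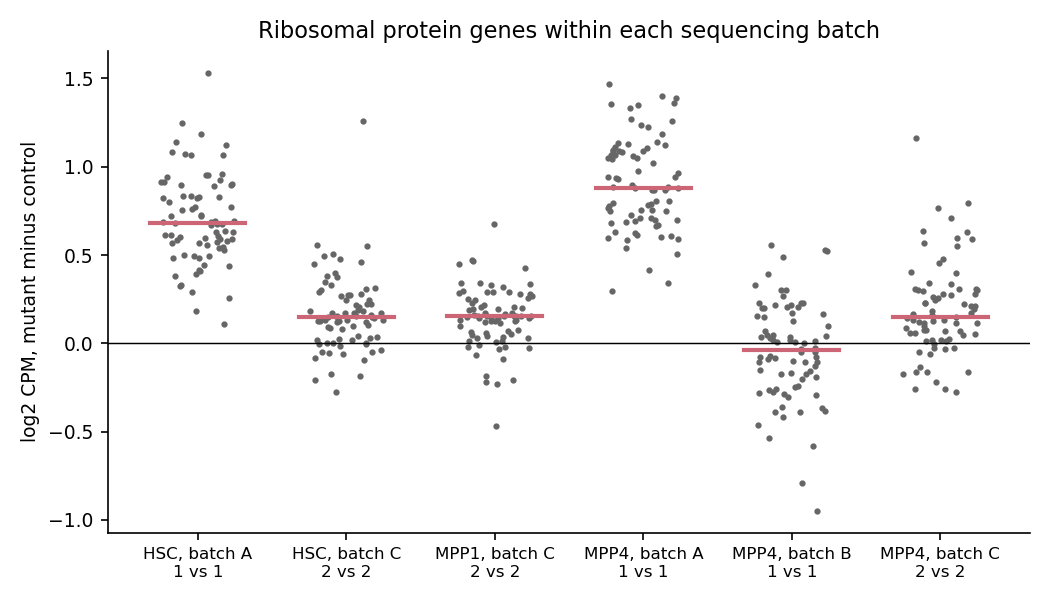
Log2 CPM of 78 ribosomal protein genes, mutant minus control, within each population and sequencing batch, with 1 point per gene, a bar at the median, and the number of mutant and control libraries under each column. The batch A medians are 0.68 and 0.88, the batch C medians 0.15 in each population, and the batch B median -0.04. Columns of the same batch come from the same ID numbers.

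With the libraries of each ID number summed, 4 mutant against 4 control, 0 of 78 members passed (0.227% of 11020 genes), with a median of 0.27 and 78 of 78 higher. That median was 0.08 without either ID number of batch A. No member passed a test of whether the mutant effect differed between MPP4 and HSC (0 of 79, 0.0283% of all genes, 0 members before adjustment). Without the 6 libraries of high B cell or erythroid message, 1 of 79 members passed in HSC, Rpl39l (0.194% of all genes). The filter admitted Rpl39l there only through its mutant libraries. On that reduced set 0 of 78 passed in MPP1 (0.632%) and 0 of 78 in MPP4 (0.255%), and the medians were 0.15, 0.41 and 0.47.

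Rpl29, a large subunit protein with one of the lower mean levels among members found in every library, varied most between libraries. It passed between genotypes only in HSC and only with a block on replicate number. HSC controls 1 to 3 had 182, 79.7 and 5.64 CPM, and HSC mutants 1 to 3 had 400, 153 and 22.5 CPM. The mutant was higher in each same-numbered pair, while the groups overlapped as wholes, and HSC control 3 and mutant 3 had 2 and 13 counts. The fitted log2 difference was 1.02 (SE 1.02, adjusted p = 0.805), while blocking on replicate number gave 1.17 (SE 0.27, adjusted p = 0.0196), the 1 member called among 0.437% of all genes. Over 18 alternatives the adjusted p ran from 0.0196 to 1, and the block was the 1 setting that called it. In batch C the replicate numbers join other ID numbers in HSC than in MPP1 and MPP4, so that call rests on a pairing that is not established. In MPP4 Rpl29 ran from 26.2 to 775 CPM in controls and from 35.1 to 398 CPM in mutants.

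Rpl29 and Rps6, the small subunit protein phosphorylated by S6 kinase, set the pattern by which libraries differed in composition. For the 78 members found in every library, the log2 share within ribosomal protein counts was decomposed into axes, and the main axis held 71.3% of the variance. Its ends were Rpl29 and Rps6 on 1 side, with Rpl15 and Rpl10 next, and on the other Rps21, Rps15a, Rpl38, Rpl27, Rps28, Rpl39 and Rps29. Those outside the role list were named after their values were seen. Rpl29 spanned 5.64 CPM, which is 2 counts, to 775 CPM, and Rps6 spanned 285 to 3236 CPM, a ratio of 11.4. Rps24 spanned a ratio of 2.89. By share, the steadiest member was Rps20, at 2.31% to 3.21% of ribosomal protein counts.

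Scores on this axis separated the batches A and B from each other and overlapped between genotypes. The 4 batch A libraries scored 1.47 to 2.33, the 2 batch B libraries 4.18 and 4.93, and the 12 batch C libraries -6.08 to 2.18. Controls ran from -6.08 to 4.93 and mutants from -4.53 to 4.18, with the middle of both ranges shared. HSC control 3 and HSC mutant 3 stood at the low end, where Rps6 was at 285 and 362 CPM, and MPP4 control 2 and MPP4 mutant 2 at the high end, where it was at 3236 and 1637 CPM. The weight of a member on the axis increased with its coding length in GENCODE (Spearman correlation 0.57 over 78 genes, which share libraries). The 10 members at the low end had a median coding length of 250.5 bases and the 10 at the high end 600.0 bases. The same correlation was 0.09 with the GC content of the transcript and 0.03 with the number of genes that copy its 3′ end. Rps6 has 13 such genes and Rpl29 has 2. The part of batch and of read assignment in this axis was not tested.

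**Figure D4:**
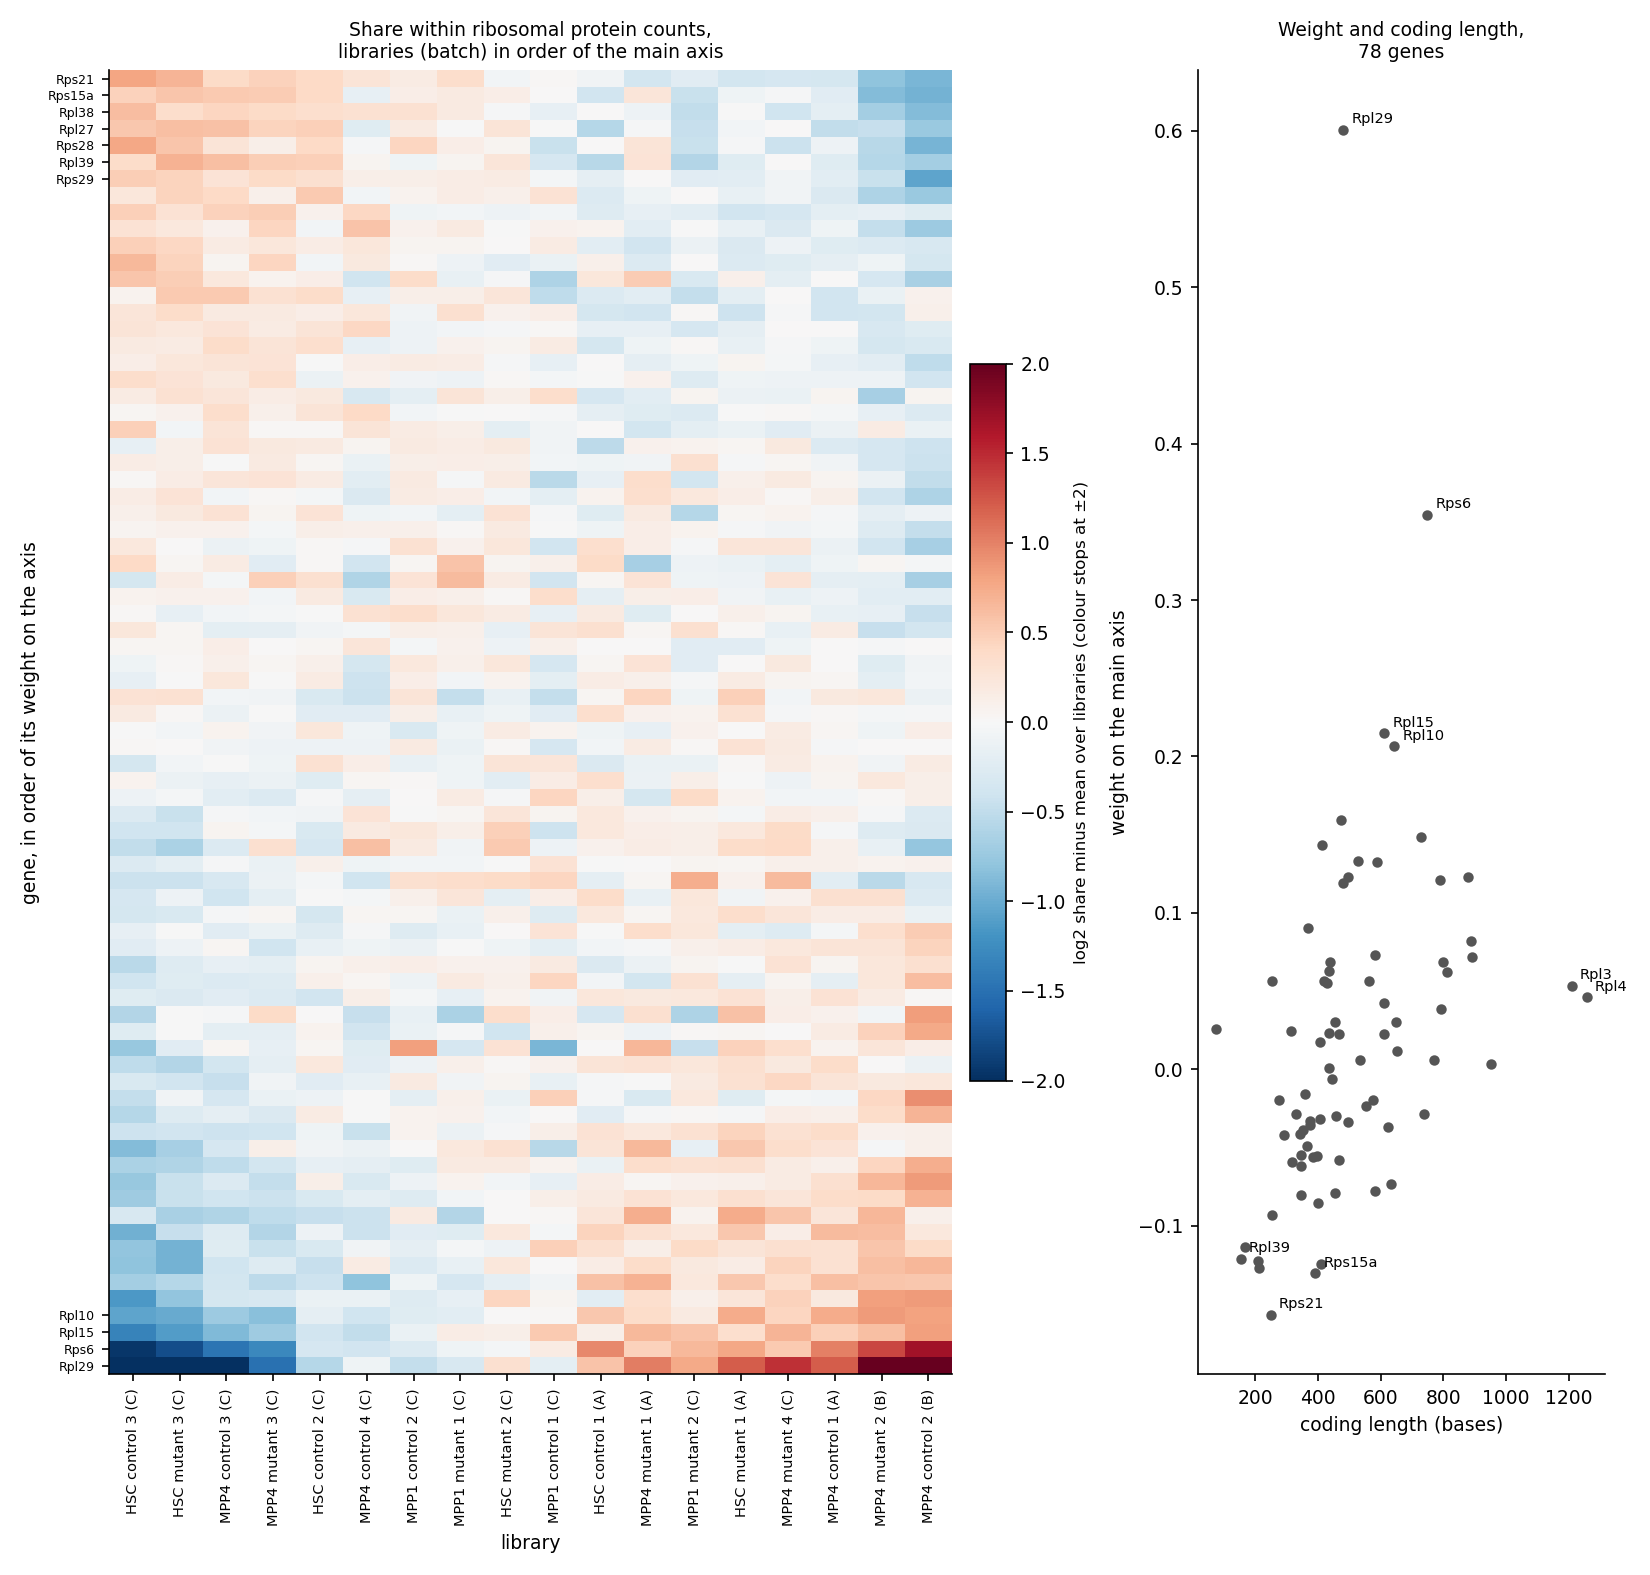
Left: log2 share of each of 78 members within the ribosomal protein counts of a library, minus its mean over libraries, with genes and libraries ordered by the main axis and names at its ends. Right: the weight of each gene on that axis against its coding length. Rpl29 and Rps6 change most, and the 2 batch B libraries lie at 1 end with scores of 4.18 and 4.93.

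The population comparisons asked how members differ between stem cells and progenitors within ID numbers. Between MPP4 and HSC in controls 0 of 79 members passed by edgeR, where 9.82% of 10613 genes did, and 0 members had p under 0.05 before adjustment. DESeq2 called 0 members there as well. The median log2 difference of members was -0.13, with 20 of 79 higher in MPP4, beside 0.00 over all genes. Between MPP4 and HSC in mutants, which share no library with the controls, 0 of 79 passed (12.7% of all genes). The members' median was -0.05, beside -0.05 over all genes, with 26 of 79 higher and 1 member before adjustment. Between MPP1 and HSC in controls 0 of 79 passed (0.236%), with a median of -0.10 and 8 before adjustment. Between MPP4 and MPP1 in controls 0 of 79 passed (3.58%), with a median of 0.02 and 7 before adjustment. These control comparisons share libraries with each other. Counts before adjustment are again given without their share over all genes, so none is read as an excess.

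Rpl15, named after its values were seen, was nearest to the threshold between MPP4 and MPP1 (log2 difference -0.80, SE 0.25, adjusted p = 0.0741 by edgeR, 0.0280 to 0.701 over 18 alternatives). Its MPP1 controls had 415 and 326 CPM, its HSC controls 429, 295 and 143.8 CPM, and its MPP4 controls 577, 584, 200 and 131 CPM, so the groups overlapped. In the 2 ID numbers that hold both populations, MPP4 had 200 against 415 CPM and 131 against 326 CPM in MPP1. The fit within ID numbers also draws on control ID number 990, through its HSC and MPP4 libraries. These CPM are without the TMM factors of the fit, which were 0.684 for MPP4 control 4 and 1.016 for MPP1 control 2.

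The MPP1 results rested on which of its 2 control libraries was kept. Without the ID number of MPP1 control 2, 7 members were higher in MPP4 than in MPP1 (2.31% of all genes passed): Rpl13, Rpl26, Rpl27, Rpl30, Rpl39, Rps25 and Rps28, named after their values were seen except Rpl39. Without the 6 libraries of high marker message, which again left MPP1 control 1 alone, 12 of 79 passed between MPP4 and MPP1, 9 higher in MPP4 and 3 lower (4.03% of all genes). On that set 7 of 79 passed between MPP1 and HSC, all lower in MPP1 (0.428%). The single MPP1 control is then assumed to vary like the other groups. Between MPP4 and HSC on that set Rpl29 and Rps6 passed in controls as lower in MPP4 (5.24% of all genes) and Rpl29 passed in mutants as higher (7.31%). Both also passed for the difference of the mutant effect there (0.0684%). On that set 1 ID number per genotype holds both an HSC and an MPP4 library, so each contrast rests on 1 pair of libraries, with the spread taken from the other groups, and on all 18 libraries neither gene had p under 0.05 before adjustment for that difference. Rpl29 and Rps6 have the largest weights on the composition axis.

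Other genes of the ribosome pathway were followed by list. Of 5 ribosomal proteins with other symbols, 4 were tested in HSC and in MPP4 between genotypes, none passed by edgeR, and all 4 were higher in mutants, with medians of 0.39 and 0.41. Of 18 other TOP messages none passed in the genotype comparisons of the 3 populations, with 17 of 18 higher in HSC mutants and 16 of 18 in MPP4 mutants. Eef1a1, the elongation factor, had 1137 CPM in HSC controls and 1669 CPM in HSC mutants (log2 difference 0.54, SE 0.59). Of 77 mitochondrial ribosomal protein genes 75 were tested in HSC, where 71 were higher in mutants with a median of 0.47, and 74 in MPP4, where 53 were higher with a median of 0.14. None of them passed between genotypes, and 2 of 75, Mrpl20 and Mrpl52, fell from HSC to MPP4 in mutants, where 12.7% of all genes passed. Without the 6 libraries of high marker message the HSC counts were 10 of 18 TOP messages higher (median 0.04) and 57 of 73 mitochondrial genes (median 0.24). On that set Eef1a1 was called as higher in MPP4 than in HSC in mutants, and as lower in MPP4 than in MPP1 in controls. It was also called for the difference of the mutant effect. Those contrasts rest on single pairs of libraries or on the single MPP1 control, so they are not read further.

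Ribosome biogenesis factors, which process and assemble ribosomal RNA, had 32 of 35 higher in HSC mutants (median 0.32) and 13 of 35 in MPP4 mutants (median -0.10), with none past the test in either. In controls Tcof1, a cofactor of ribosomal RNA transcription, rose from 108 CPM in HSC to 186 CPM in MPP4 (log2 difference 0.81, SE 0.21, adjusted p = 0.00768 by edgeR). In mutants Bysl, Rrp12 and Cirh1a (also named Utp4), 3 of 35 factors beside 12.7% of all genes, fell from HSC to MPP4, as did Polr1b, the second largest subunit of RNA polymerase I. Bysl went from 41.3 to 19.5 CPM (log2 difference -1.16, SE 0.33, adjusted p = 0.0139) and Polr1b from 44.9 to 20.1 CPM (log2 difference -0.95, SE 0.29, adjusted p = 0.0255). None of these passed by edgeR without the 6 libraries: the adjusted p was 0.177 for Tcof1, 0.555 for Bysl, 0.709 for Rrp12, 0.301 for Cirh1a, 0.529 for Polr1b, 0.471 for Mrpl20 and 0.804 for Mrpl52. On that set 25 of 35 biogenesis factors were higher in HSC mutants (median 0.11) and 24 of 35 in MPP4 mutants (median 0.10).

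Among 15 controllers of ribosome production, Mycn was the 1 that passed between HSC and MPP4 in both genotypes, beside 9.82% and 12.7% of all genes. It fell from 199 to 49.8 CPM in controls (log2 difference -1.97, SE 0.26, adjusted p = 5.2e-06 by edgeR) and from 186 to 30.6 CPM in mutants (log2 difference -2.13, SE 0.27, adjusted p = 1.3e-06). Mycn also passed without the 6 libraries, with log2 differences of -2.14 (SE 0.34) and -2.67 (SE 0.35). Myc, its relative, had 160 and 187 CPM in the control populations and did not pass (log2 difference 0.29, SE 0.23). No controller passed between genotypes. Of 16 ribosomal protein pseudogenes 5 were tested in HSC, where 0.241% of all genes passed. Rps2-ps6 rose there from 12 CPM in controls to 50.5 CPM in mutants (log2 difference 2.08, SE 0.43, adjusted p = 0.0219 by edgeR). The expression filter left it untested in HSC once the 6 libraries were removed. On that reduced set it passed in MPP4 as higher in mutants, where 0.255% of all genes passed. All 7 pseudogenes tested there were higher in mutants (median 1.11), while on all libraries 0 of 4 passed in MPP4. Rpl9-ps6 was called on the reduced set only in contrasts with the single MPP1 control. Rps2, the parent of Rps2-ps6, has 38 other genes with a copy of its 3′ end, so reads of these genes cannot be told apart here.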

How the data were processed

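The deposited values are estimated counts per gene symbol, each equal to a number of distinct UMIs corrected for collisions among 4096 tags. The submitters' processing notes name mm10, R 3.4.0 and DESeq2. No source used here names an aligner or counter. Per the file headers, the authors' deposited DESeq2 tables give a log2 fold change with standard error, a test score, p-values and a mean signal.

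Counts were used as deposited. Each population was fitted with edgeR 4.0.16 in R 4.3.3 (TMM, expression filter with a minimum count of 10, robust quasi-likelihood F test), with a term for batch except in MPP1, which has 1 batch. Population contrasts came from 1 model over 18 libraries with ID number as a block. Benjamini-Hochberg adjustment ran over all genes tested, with a threshold of 0.05. DESeq2 1.42.0 was an alternative. Within-batch values are differences of log2 CPM with a prior count of 2. The fits were tested on simulated data. Every pair of same-group libraries differed by more than sampling noise.

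Same-numbered HSC libraries deviated together (r = 0.49, 0.20 and 0.22 over genes), so their numbers were used as pairs in the replicate block. Batch C libraries of different number also correlated (r = 0.24 and 0.12), so number and batch are not set apart. Nor are the pairs fixed: control ID number 1156 shares its replicate number with mutant 1175 in HSC but with 1159 in MPP1 and MPP4. In MPP4 r was 0.32, -0.02, 0.34 and -0.01.

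The members and lists were chosen with earlier results of these data known. Members were named by role, by paralog pair, by the 5 highest and 5 lowest mean levels, and by passing a test; others are stated as named after their values were seen. Floors and intervals cover counting error only. Coordinates are from GENCODE M21 and RefSeq on GRCm38, the same assembly as mm10. Chromosome 18 sequences are not shown, and a few genes are not reported here.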

Additional observations from a re-analysis of the deposited data

Results flagged for a closer look

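In MPP4 mutant 1, a batch A library, Rpl4 was at 8917 CPM, while the other 3 MPP4 mutants had 3058 to 3550 CPM. It is listed because 1 library stood far from the rest of its group of 4 by Dixon's test at the 95% level. Rpl4, a large subunit protein near the exit tunnel, was the 1 such case among 62 checks of group and measure, a rule that chance meets in about 1 of 20 groups. In HSC mutant 1, of the same ID number, Rpl4 was at 5527 CPM, beside 4490 and 4593 CPM in the other HSC mutants. Its cause was not tested.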

How the results depend on the processing

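The count of members called was 0 in every main comparison and stayed 0 under 140 of 159 alternatives. In HSC, mutant against control, it was 1 in batch C alone, without a filter, and with the replicate block, 0 to 1 when each library was left out, and 1 without the 6 libraries of high marker message, the last an alternative chosen after seeing the data, as were the sums per ID number. In MPP1 it was 0 to 1 when each library was left out, the 1 being Rpl26 without control 1, lower in mutants. With no filter it was 1 between MPP4 and MPP1 in controls (Rpl15) and 1 for the sums per ID number (Rpl39l). When each ID number was left out it was 0 to 2 between MPP1 and HSC and 0 to 7 between MPP4 and MPP1. Without the 6 libraries it was 2 between MPP4 and HSC in controls, 7 between MPP1 and HSC, 12 between MPP4 and MPP1, 1 between MPP4 and HSC in mutants and 2 for the difference of the mutant effect.

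The replicate block in place of batch changed no other count: it gave 0 members in MPP1 and MPP4, where the numbers do not meet the rule for pairs, with medians of 0.15 and 0.29. Rps27l passed in HSC without control 2 (adjusted p = 0.0417). The median of members ranged over all alternatives from 0.15 to 0.44 in HSC, -0.10 to 0.41 in MPP1, 0.08 to 0.47 in MPP4, -0.26 to -0.02 between MPP4 and HSC in controls, -0.47 to 0.26 between MPP1 and HSC, and -0.42 to 0.46 between MPP4 and MPP1. The mean share of counts moved by more than 1 SD in 2 groups: with distinct UMIs it was 13.1% in HSC controls and 12.2% in MPP1 mutants, and without mitochondrial and ribosomal RNA in the total 15.3% and 13.6%. Except where libraries are left out, the causes were not tested. Depth limits Rpl39l, Rpl3l and Rpl24 most, at 60, 18 and 28 counts in all.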
